A study of Drosophila melanogaster with 3 samples.

Results

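The genes described here encode the subunits of oxidative phosphorylation in Drosophila melanogaster, taken as the protein-coding genes of the Ensembl annotation BDGP6 whose symbols begin with ND-, UQCR-, COX or ATPsyn, together with SdhA, SdhB, SdhC, SdhD, the cytochrome c genes Cyt-c-d and Cyt-c-p, and the Rieske protein gene RFeSP. There were 87 such genes among 13945 protein-coding genes on the 6 chromosome arms. They were examined in ChIP-seq, the sequencing of DNA that comes down with a protein, of az2, a zinc finger protein. Mixed-sex embryos collected from 0 to 16 hours came from a transgenic line that stably carries az2 fused at its C-terminal end to GFP, and the chromatin was pulled down through the GFP tag. The 3 biological replicates formed 1 group, with no untagged or mutant embryos and no second stage beside them, so every value below describes binding in 1 kind of sample and none is a contrast between conditions. A whole embryo mixes tissues and ages, and the labels do not give the level of the fusion protein relative to the normal one. Read depth is unknown, since the peak lists carry no counts of reads.

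Oxidative phosphorylation takes place in the inner mitochondrial membrane. Complex I passes electrons from NADH, and complex II from succinate, to coenzyme Q; complex III hands them to the mobile carrier cytochrome c, complex IV passes them to oxygen, and complex V, the ATP synthase, uses the proton gradient built on the way to make ATP. A few core subunits are encoded by mitochondrial DNA, and all genes described here are nuclear. In flies many of these nuclear genes also have a second copy, often expressed mainly in the testis.

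Tagged az2 was found at the promoters of 20 of the 87 genes (23.0%, exact binomial 95% interval 14.6 to 33.2%). Over all protein-coding genes the share was 22.6% (3157 of 13945), so the family as a whole stood at the genomic background. The authors' IDR list, named after the irreproducible discovery rate, holds 5786 pooled peaks. A promoter was counted as bound when a listed peak summit lay within 500 bp of any annotated transcription start site (TSS) of the gene. The lowest signal of the list, 133, was also the signal at rank 5786 of the longer, relaxed pooled list. Each of the 20 promoter peaks had the same rank in both lists. Being listed does not show that a peak repeated in every replicate. Of the 5786 summits, 4198 (72.6%) lay inside a peak among the 5786 highest of every replicate. By complex, 11 of 40 genes of complex I were bound (27.5%, 14.6 to 43.9%), 1 of 4 of complex II (25%, 0.631 to 80.6%), 0 of 10 of complex III (up to 30.8%), 1 of 2 cytochrome c genes, 5 of 16 of complex IV (31.2%, 11 to 58.7%) and 2 of 15 of complex V (13.3%, 1.66 to 40.5%). Every one of these intervals, which cover counting error over genes only, included the background share, and no complex was tested against another.

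**Figure D1:**
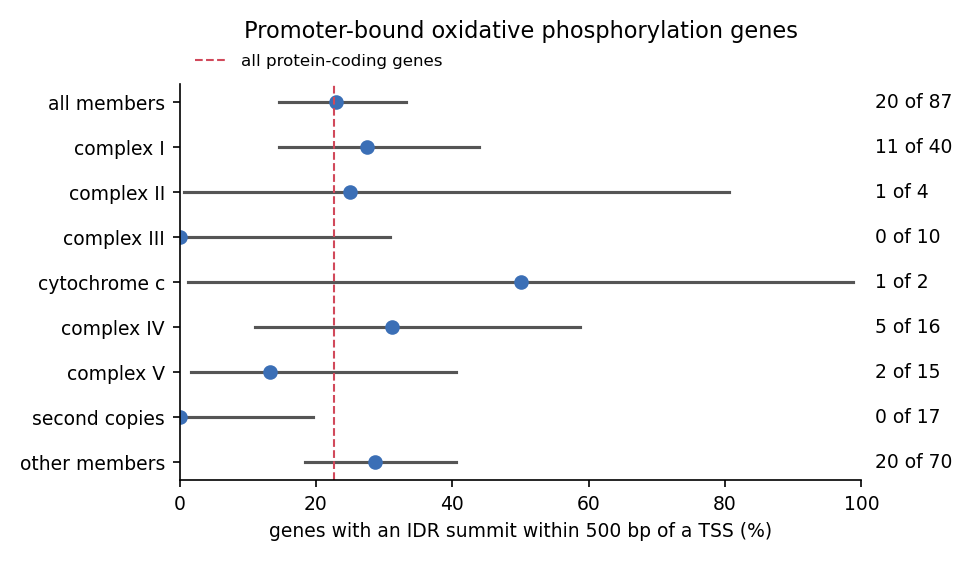
Share of genes with an IDR summit within 500 bp of a TSS, in percent, for all 87 genes, for each complex and for second copies against the remaining genes. Points are shares, lines are exact binomial 95% intervals and the dashed line is the share over all protein-coding genes (22.6%), which lies inside every interval except that of the second copies, which ends at 19.5%.

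The sequences around 6 of the bound summits are printed to show the DNA at those peaks. They are the highest peak of the family (Cyt-c-d), 4 of the 5 peaks with a match to Motif 7, a core promoter element of broadly expressed fly genes, and the peak with a match to the core of the CTCF insulator site (COX5B). Each is up to 100 bp to either side of the summit, ended where more than 15 bases of an untranslated region would be included on that side, and reads 5′ to 3′ on the strand of the named gene in the RefSeq dm6 genome. Capitals mark the Motif 7 match in ND-42 (chr3R:22027530-22027723, plus strand), ND-ASHI (chrX:6679274-6679474, minus strand), ND-MNLL (chrX:7893796-7893996, minus strand) and SdhC (chr3R:11209853-11210053, minus strand), and the CTCF core on the opposite strand in COX5B (chr2L:6557488-6557615, plus strand). The Cyt-c-d window (chr2L:16716227-16716427, plus strand) held none of the 8 motifs searched and has no capitals.
ND-42: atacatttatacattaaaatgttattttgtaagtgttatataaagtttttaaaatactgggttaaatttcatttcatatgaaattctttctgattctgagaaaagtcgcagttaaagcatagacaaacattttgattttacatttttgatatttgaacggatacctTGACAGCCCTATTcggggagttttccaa
ND-ASHI: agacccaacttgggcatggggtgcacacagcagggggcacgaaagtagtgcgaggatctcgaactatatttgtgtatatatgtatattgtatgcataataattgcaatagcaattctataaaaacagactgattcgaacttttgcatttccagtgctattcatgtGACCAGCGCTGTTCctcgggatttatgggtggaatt
ND-MNLL: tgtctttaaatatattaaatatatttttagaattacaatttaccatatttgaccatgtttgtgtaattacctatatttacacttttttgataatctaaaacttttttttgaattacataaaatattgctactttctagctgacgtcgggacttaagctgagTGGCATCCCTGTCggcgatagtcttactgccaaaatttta
SdhC: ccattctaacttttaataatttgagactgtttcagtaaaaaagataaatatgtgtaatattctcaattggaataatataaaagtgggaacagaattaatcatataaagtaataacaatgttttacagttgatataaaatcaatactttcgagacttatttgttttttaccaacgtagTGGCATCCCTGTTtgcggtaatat
COX5B: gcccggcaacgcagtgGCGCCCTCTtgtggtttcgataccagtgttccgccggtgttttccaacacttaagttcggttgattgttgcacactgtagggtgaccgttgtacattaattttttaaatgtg
Cyt-c-d: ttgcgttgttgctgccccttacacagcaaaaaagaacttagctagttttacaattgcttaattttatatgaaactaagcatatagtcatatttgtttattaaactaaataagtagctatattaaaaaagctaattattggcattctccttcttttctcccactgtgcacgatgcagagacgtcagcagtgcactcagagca

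Complex I had the most bound genes. By the place of the human counterpart in the complex, 4 of the 7 core subunits of the matrix arm, which takes electrons from NADH to coenzyme Q, were bound (57.1%, 18.4 to 90.1%, an interval that includes the background of 22.6%). ND-51 (FBgn0031771), which carries the flavin that takes electrons from NADH, had a peak at 2L:6062743-6062960 with a signal of 474, rank 950 of the 5786 IDR peaks, 79 bp upstream of the TSS in intergenic DNA. ND-24 (FBgn0030853), its partner subunit with an iron-sulfur cluster, had a signal of 489 at X:17632070-17632336, with the summit 77 bp downstream of the TSS in the 5′ UTR. Both peaks repeated closely. The ND-51 peak ranked 1169, 693 and 1435 in the lists of replicates 1, 2 and 3, with signals of 99.5, 231 and 134, and the ND-24 peak ranked 975, 737 and 987, with signals of 110, 224 and 164. Signal was scaled separately in each list, so the rank is the value that can be set side by side. The third subunit of the NADH-oxidising module, ND-75, had no summit within 500 bp, even in the relaxed pooled list.

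The core subunits nearer to coenzyme Q had lower peaks. ND-23 (FBgn0017567), which holds iron-sulfur clusters, had a signal of 180 at 3R:15837051-15837480, and its summits in the 3 replicates lay 77, 168 and 261 bp upstream of the TSS, the widest spread of the family at 184 bp. ND-30 (FBgn0266582) had a signal of 170 at 3L:3159516-3159945 and a second, lower peak of 142 whose summit was 363 bp upstream. In replicate 2 its first peak ranked 6072, below the 5786 highest, while replicates 1 and 3 placed it at 5294 and 3385. ND-20 and ND-49, also of this module, were not bound.

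Of the 17 accessory subunits of the membrane arm, which do not carry electrons, 7 were bound (41.2%, 18.4 to 67.1%), against 0 of 8 accessory subunits of the matrix arm (up to 36.9%). The intervals overlap, and the grouping by human counterpart was made after the calls were seen. ND-ASHI (FBgn0029888) had the highest complex I peak, with a signal of 667 at X:6679234-6679506 and ranks of 705, 431 and 468 in the 3 replicates. Its summit lay 256 bp upstream of the ND-ASHI TSS, inside an intron of Fum1, the fumarase of the citric acid cycle, whose gene overlaps ND-ASHI head to head; the same peak therefore also counted Fum1 as bound. ND-MWFE (FBgn0085468) had a signal of 594 at 2R:13158349-13158595 with ranks of 743, 380 and 923, and its summit was 206 bp from its own TSS but 15 bp from that of TppII, a tripeptidyl peptidase gene. ND-42 (FBgn0019957) had a signal of 437 at 3R:22027571-22027782 with ranks of 1297, 1559 and 669. The summit lay 79 bp upstream of ND-42 in a gap of 229 bp to Cchl, the gene of the enzyme that attaches heme to cytochrome c, so a pair of respiratory genes faces the same peak.

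The other membrane-arm peaks were lower. ND-SGDH (FBgn0011455) had a signal of 348 at 3L:12138475-12138904 and ND-MNLL (FBgn0029971) of 252 at X:7893681-7894110, with summits 106 and 98 bp upstream; the ND-MNLL summit was equally near to a TSS of CG45089. ND-B17 (FBgn0001989) had a signal of 198 at 2L:15750973-15751402, 110 bp upstream of the TSS, and ND-B22 (FBgn0032511) had the lowest signal of all 20, 168 at 2L:13370828-13371257, 17 bp upstream of the nearest TSS but in the 5′ UTR from an earlier one. In the 3 replicates ND-B22 ranked 5084, 5786 and 3826, so that in replicate 2 it stood last among the 5786 highest.

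In complex II, which oxidises succinate and belongs to the citric acid cycle as well, SdhC (FBgn0037873), a membrane anchor, was the bound gene. Its peak at 3R:11209738-11210167 had a signal of 222, 104 bp upstream of the TSS, and a second peak of 194 lay 311 bp upstream, in the same gap of 398 bp to Tctp. The first peak ranked 3076 in replicate 2 and 2282 in replicate 3, and no peak of replicate 1 covered its summit. SdhA, the flavoprotein, had its nearest IDR summit 873 bp upstream (signal 202), SdhB had none within 1000 bp, and SdhD, the other anchor, had only a relaxed pooled peak of 112.

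None of the 10 genes of complex III had an IDR summit within 500 bp. A count of 0 among 10 genes allows a share of up to 30% by the rule of 3 counts, which includes the background, so a lower share than elsewhere was not detectable. RFeSP, the Rieske iron-sulfur protein, had a relaxed peak of 80.8, UQCR-C2, a core protein, of 68.3, and UQCR-C1 none. The nearest IDR summits were 899 bp upstream of UQCR-14 (signal 145) and 959 bp downstream of the start of UQCR-6.4L (signal 272).

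The cytochrome c genes lie close together on 2L and had the highest peak of the family. Cyt-c-d (FBgn0086907), the form known from the male germ line, had a signal of 1138 at 2L:16716160-16716517, rank 138 of 5786 and above 95.8% of bound protein-coding genes. It was even across replicates: the ranks were 126, 140 and 170 in the 3 replicates, the signals 270, 494 and 371, and the summits 369, 359 and 366 bp downstream of the TSS, in an intron. The nearest TSS, 132 bp away, belongs to CG31808 on the other strand, so the peak lies upstream of that gene and within Cyt-c-d. Cyt-c-p, the form used in respiration of most tissues, had an IDR peak in its own intron at 2L:16720774-16721014 with a signal of 408, but 967 bp from the TSS and so outside the window; at its TSS there was only a relaxed peak of 103, 13 bp downstream, which ranked 4365 in replicate 1 and 6701 in replicate 3 and was missing from replicate 2.

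In complex IV, cytochrome c oxidase, 5 genes were bound. COX5A (FBgn0019624) had a signal of 375 at 3R:11819421-11819589 with replicate ranks of 1683, 1557 and 1277; the summit lay in an intron of COX5A, 109 bp upstream of its second TSS, and nearer (70 bp) to a TSS of glo, an RNA-binding protein gene. COX7B (FBgn0040793) had a signal of 342 at 3L:17425145-17425574 with ranks of 1804, 1697 and 1689, 117 bp upstream. COX8 (FBgn0263911) had a signal of 259 at 3L:21539285-21539714, 53 bp upstream, in the 415 bp that separate it from VhaM9.7-b, a subunit gene of the vacuolar proton pump. COX5B (FBgn0031830) had a signal of 226 at 2L:6557300-6557729. That summit was 285 bp upstream of COX5B but 13 bp from the TSS of IFT52, an intraflagellar transport gene, and the CTCF core printed above lay 7 bp from it. COX6B (FBgn0031066) had a signal of 186 at X:19744162-19744591, 42 bp from TSSs of both COX6B and CG18809, and ranked 3593, 5208 and 4048. COX4, a regulatory subunit, had no peak in either list.

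In complex V, 2 genes of the membrane and stalk portion were bound and 0 of 3 genes of the catalytic head. ATPsynC (FBgn0039830), the subunit of the rotating ring, had a signal of 712 at 3R:31219476-31219803, 9 bp downstream of the TSS in the 5′ UTR, with ranks of 563, 554 and 221 and summits within 23 bp of the TSS in every replicate. ATPsynE (FBgn0038224), known from yeast and mammals to help ATP synthase dimers form, had a signal of 319 at 3R:14326910-14327088, 34 bp downstream of the TSS, with ranks of 2130, 1327 and 2449. The catalytic beta subunit ATPsynbeta had no IDR peak at its start. The alpha subunit gene, blw, whose symbol the definition does not reach, was bound with a signal of 449 at 100 bp upstream.

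**Figure D2:**
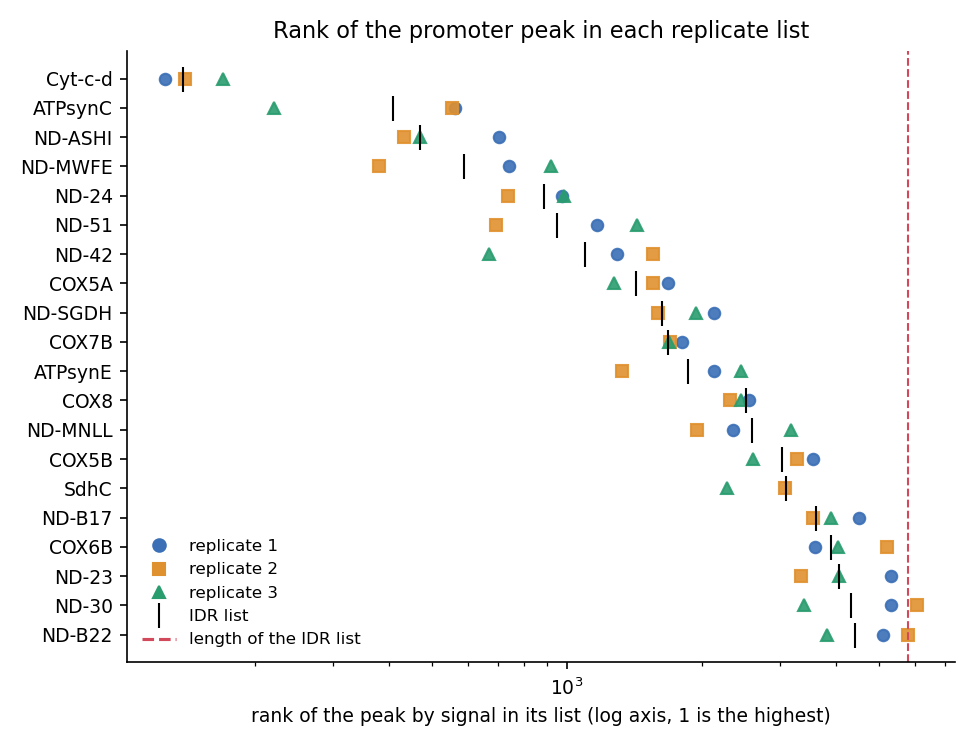
Rank of the promoter peak of each bound gene by signal in the list of replicate 1 (circles), 2 (squares) and 3 (triangles) and in the IDR list (bars), on a log axis where 1 is the highest peak; the dashed line is the length of the IDR list, 5786. Cyt-c-d stays between 126 and 170 in all replicates, SdhC has no point for replicate 1, and ND-30 in replicate 2 is the point past the line, at 6072.

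Most of the 20 promoter peaks were found again in each replicate list. The IDR list comes from the alignments of these same replicates, so this overlap is no separate evidence of binding. With each replicate list reduced to its 5786 highest peaks, 18 of 20 summits (90.0%) lay inside a peak of all 3 replicates, against 77.6% of the 3157 bound protein-coding genes, and ND-30 and SdhC lay inside peaks of 2. No interval was computed for these shares. The replicate summits of 1 gene spread over a median of 45.0 bp (range 2 to 184 bp). Signal at the bound genes ran from 168 to 1138 with a median of 330.5 (quartiles 216.0 and 477.8), against a median of 280.0 (185.0 and 469.0) over all bound protein-coding genes, and 11 of 20 were above that median. The median rank was 2130 in replicate 1 (19 genes), 1648 in replicate 2 and 2111 in replicate 3.

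The summits sat close to the start of transcription. The median offset was 101.0 bp upstream of the nearest TSS of the gene (quartiles 125.0 and 35.75 bp upstream), against 143.0 bp upstream (236.0 and 74.0) for all bound protein-coding genes. Of the 20 summits 16 were upstream (80.0%, against 90.5%), and the 4 downstream ones belonged to ND-24, Cyt-c-d, ATPsynC and ATPsynE. By annotation 12 lay in intergenic DNA, 4 in an intron, 4 in a 5′ UTR and 0 in coding sequence. At 14 genes the own TSS was the single nearest, at ND-MNLL and COX6B it tied with that of another gene, and at ND-MWFE, Cyt-c-d, COX5A and COX5B another gene's was nearer. The summits nearest to the limit of 500 bp from inside were at 256 bp (ND-ASHI), 285 bp (COX5B) and 366 bp (Cyt-c-d). From outside they were at 511 bp (COX7AL2, signal 202, 5′ UTR), 873 bp (SdhA) and 899 bp (UQCR-14), so no gene lay close to the limit except COX7AL2. Among the 67 genes not bound, the median distance to the nearest summit was 6150 bp, and 21 were farther than 10000 bp.

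**Figure D3:**
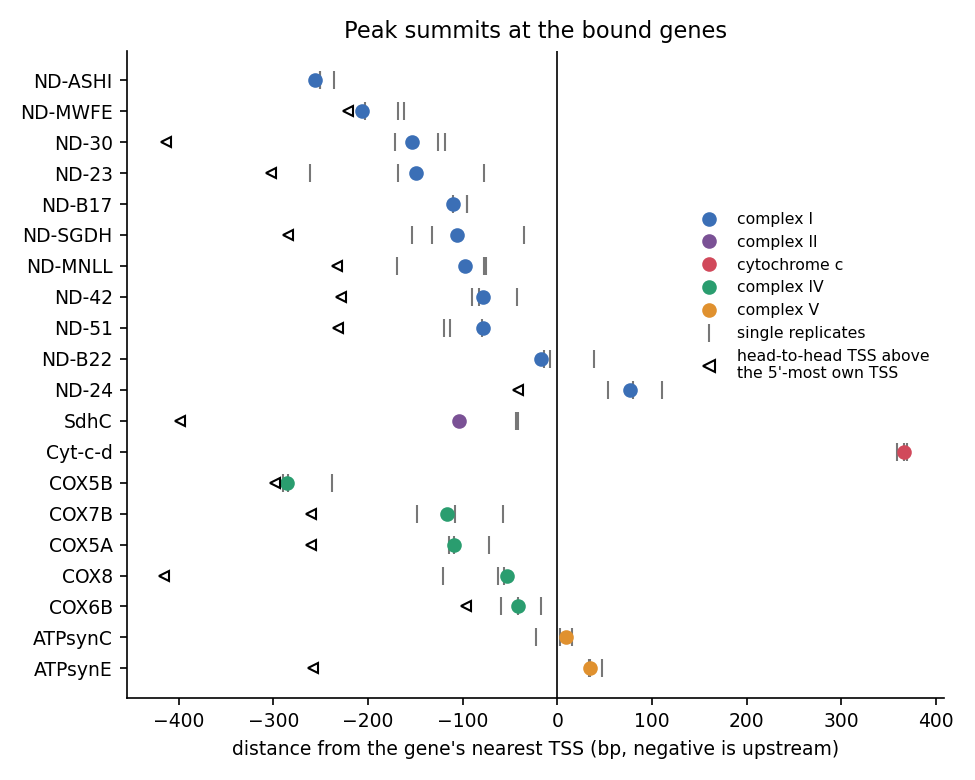
Distance of the peak summit from the nearest TSS of each bound gene in bp, negative being upstream. Circles are IDR summits coloured by complex, bars are summits in single replicates and open triangles are the head-to-head neighbour's nearest TSS upstream of the 5′-most TSS of the gene; the summits of 16 genes lie left of 0, and most lie between the TSS and the neighbour's.

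Most bound genes had a promoter facing that of a neighbour (15 of 20, against 53.6% of bound protein-coding genes). Of the 36 genes with a head-to-head neighbour, that is another gene transcribed away from them whose TSS lies up to 500 bp upstream of their 5′-most one, 15 were bound (41.7%, 25.5 to 59.2%), against 3 of 45 lone genes, with no other gene's TSS within 500 bp of the 5′-most TSS (6.67%, 1.40 to 18.3%) and 2 of 6 with another arrangement. The same held over the genome, where 41.1% of head-to-head, 14.1% of lone and 24.5% of other protein-coding genes were bound. Head-to-head genes of the family therefore stood at their own background, and for lone genes the background lay inside the interval. Head-to-head promoters made up 41.4% of the family and 29.5% of all protein-coding genes. ND-ASHI was counted as lone although it overlaps Fum1, since no Fum1 TSS lies within 500 bp of its own 5′-most TSS.

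The share bound was higher at wider gaps, in the family as in the genome. With the neighbour 200 to 500 bp away, 12 of 22 genes were bound (54.5%, 32.2 to 75.6%), against 49.1% of all such genes, and with the neighbour nearer than 200 bp it was 3 of 14 (21.4%, 4.66 to 50.8%), against 29.3%. The limit of 200 bp was chosen after the values were seen. Bound head-to-head genes had a median gap of 258.0 bp (range 20 to 415 bp) and unbound ones of 173.0 bp (21 to 410 bp), so the ranges overlapped fully. The neighbours of bound genes had varied roles: spn-E (an RNA helicase of the piRNA pathway) beside ND-23, corolla (a protein of the synaptonemal complex) beside ND-24, p115 (a Golgi tether) beside ND-MNLL, RhoGAP68F beside ND-SGDH, Sec3 (of the exocyst) beside COX7B, Rpp20 (of RNase P) and CG33932 beside COX6B, Afti beside ATPsynE, CG13994 beside ND-51 and CG15812 beside ND-30. Cchl beside ND-42 has a known place in respiration. Not bound were the head-to-head pairs of ND-B16.6 with kdn, the citrate synthase gene, and of ATPsynD with mRpL55, of the mitochondrial ribosome.

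**Figure D4:**
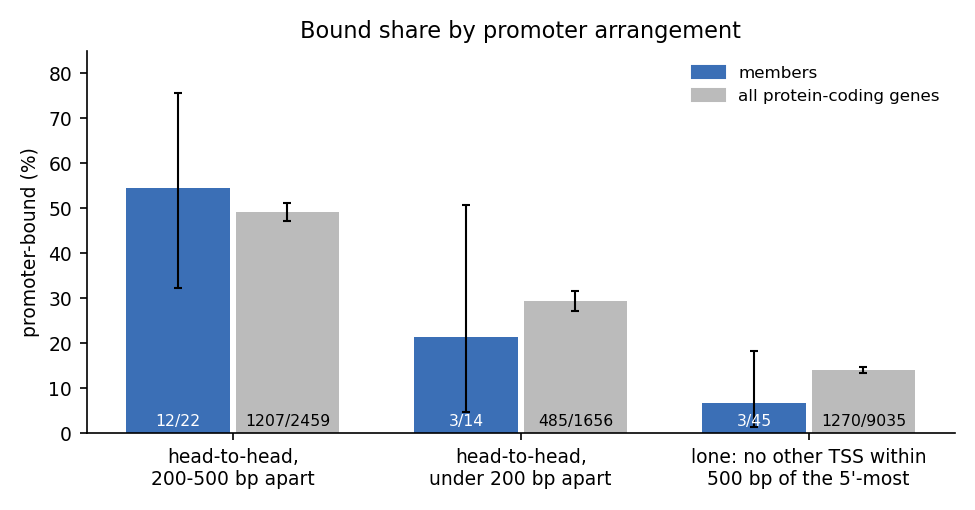
Share of promoter-bound genes in percent by promoter arrangement, for the oxidative phosphorylation genes (blue) and all protein-coding genes (grey), with exact binomial 95% intervals and the counts at the foot of each bar. In both sets the share falls from head-to-head genes 200 to 500 bp apart (54.5% and 49.1%) to lone genes (6.67% and 14.1%).

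Second copies were not bound within the window of 500 bp, but COX7AL2 had an IDR summit just outside it, at 511 bp. There were 17 genes whose symbol is that of another gene of the family followed by L, L1 or L2, such as ND-51L1, COX7AL and ATPsynbetaL, and 0 had an IDR summit within 500 bp, which allows a share of up to 17.6% by the rule of 3 counts (exact upper limit 19.5%). The other 70 genes were bound in 20 cases (28.6%, 18.4 to 40.6%). Of the 17 copies 14 had lone promoters and 3 a head-to-head neighbour, and lone genes were rarely bound in the genome; among lone genes 0 of 14 copies (up to 23.2%) and 3 of 31 other genes (9.68%, 2.04 to 25.8%) were bound, so the copies did not stand apart there. Without these 17 genes, complex I had 11 of 34 bound (32.4%, 17.4 to 50.5%) and complex III 0 of 7 (up to 41.0%). Complex IV had 5 of 11 (45.5%, 16.7 to 76.6%) and complex V 2 of 12 (16.7%, 2.09 to 48.4%). No share could fall, since none of the genes left out was bound, and each interval included the background of 22.6%. Counting ATPsynepsilonL, COX6AL, COX6AL2 and COX6CL as well, whose first copies have other kinds of symbols, the count was 0 of 21.

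Below the IDR threshold there was more signal at these genes. In the relaxed pooled list, which holds peaks together with background, 57 of 87 genes had a summit within 500 bp of a TSS (65.5%, 54.6 to 75.4%), against 49.4% of all protein-coding genes. Of the 67 genes without an IDR peak there, 37 had a relaxed one (55.2%, 42.6 to 67.4%), against 34.6% of such genes in the genome, and both intervals lay above the background. The 37 genes are part of the 57, so these are not separate results. Shares were not compared within the same promoter arrangement, and 41.4% of the family was head-to-head, against 29.5% of all protein-coding genes. The relaxed share was 34 of 50 for the unbound genes outside the 17 second copies (68.0%, 53.3 to 80.5%) and 3 of 17 for those copies (17.6%, 3.8 to 43.4%). Of the 37 relaxed peaks, 18 had their summit inside a peak of all 3 replicates' relaxed lists, 14 of 2 and 5 of 1. The same count was not made over all protein-coding genes. The pooled list also comes from the alignments of these replicates, so the overlap is no separate evidence of binding. No test was made, and these genes cannot be called bound.

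The highest of these weak peaks stood just under the lowest IDR signal of 133. ATPsynO, a stalk subunit, had 131, 24 bp upstream of the TSS, and ranked 6414, 4620 and 20530 in the 3 replicates. ATPsynCF6, also of the stalk, had 129 and ranked 6064, 8047 and 5313. COX7AL2, a second copy, had 128 and ranked 3012, 4964 and 2871, among the 5786 highest peaks of each replicate. ATPsynbeta had 120 with ranks of 7787, 5050 and 12089. SdhD had 112, with ranks of 5607, 12934 and 5270. The replicate ranks thus ran from 4620 to 20530 at ATPsynO and from 5050 to 12089 at ATPsynbeta. Rank gaps so deep in the lists cannot be set directly against those of the bound ATPsynC, which ran from 221 to 563. In complex V, 8 of the 13 unbound genes had such a weak peak.

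**Figure D5:**
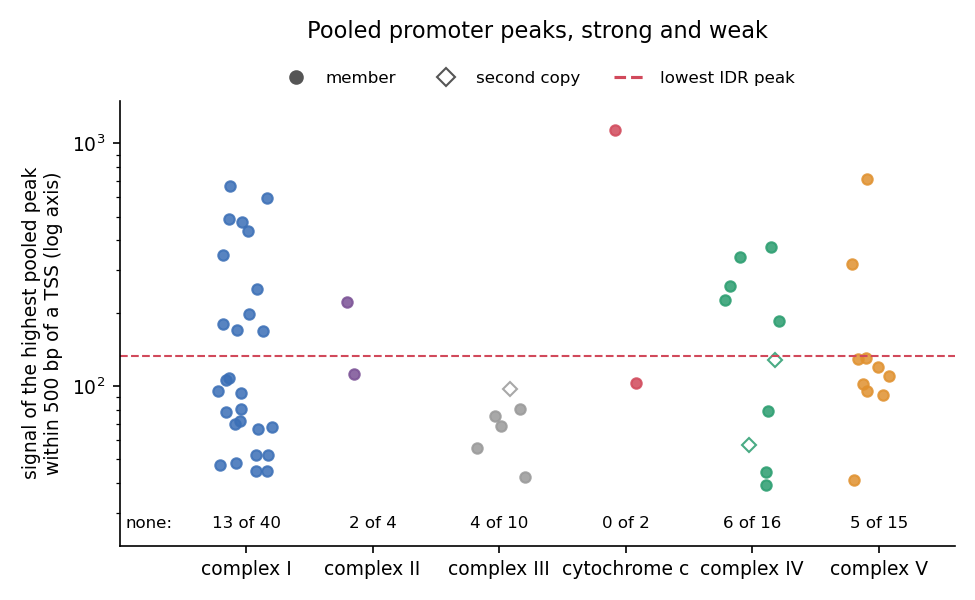
Signal of the highest pooled peak within 500 bp of a TSS, on a log axis, for each gene by complex; filled circles are the other genes, open diamonds second copies (symbol of another gene of the family plus L, L1 or L2), and the dashed line is the lowest IDR signal, 133. The row of numbers gives genes with no pooled peak, 13 of 40 in complex I and 5 of 15 in complex V; several complex V genes lie just under the line.

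The sequences were searched for 8 motifs on both strands within 100 bp of each of the 20 summits and of all 2695 IDR summits near a TSS. Motif 7 was in 5 windows (25%), against 10.1% of all promoter summits. They were those of ND-42, ND-ASHI, ND-MNLL, ND-MWFE and SdhC, with the match 7 bp upstream of the TSS in ND-42, 21 bp in SdhC and 31 bp in ND-MNLL, and farther up, at 184 and 191 bp, in ND-ASHI and ND-MWFE. From the summit, the match lay 15 bp away in ND-MWFE, whose window is not printed. In the printed windows it lay 67 bp away (ND-MNLL), 71 and 72 bp (ND-ASHI), 72 bp (ND-42) and 83 bp (SdhC). The count of 5 windows is small, no interval was computed and no test was made. Within 50 bp of the summit Motif 7 was in 1 of 20 windows, against 4.12% of promoter summits. The matches of ND-MNLL and SdhC, in genes on different chromosomes, shared a run of 12 bases, TGGCATCCCTGT, while other pairs of the printed matches shared at most 5. All were picked as matches to the same motif, so part of any shared run is set by the search. The ND-MWFE match was not compared. In ND-ASHI 2 overlapping matches were counted once, and in ND-42 the match overlapped that of the ZIPIC core. In windows of the same length centred 100 bp upstream of the 5′-most TSS, Motif 7 was found in 5 of 20 bound genes (25%), 3 of 67 unbound genes (4.48%) and 5.87% of all protein-coding genes. No interval was computed for these shares.

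The remaining motifs were also in few windows or were near their share over all promoter summits. The element TTANNTAA, described at nuclear genes of respiration in flies, was in 6 windows (30%, against 22.9%), and the closest match was 4.5 bp from the summit of ND-30. The DNA replication-related element TATCGATA was in 2 (ND-23 and ATPsynE; 10%, against 6.6%), the E-box CAGCTG in 3 (15%, against 11.7%), the ZIPIC core AGGGCTG in 2 (ND-42 and ND-51; 10%, against 4.3%), the CTCF core AGNNGGCGC in 1 (5%, against 3.23%), and Motif 1 and GAGAGAG in 0 (against 2.04% and 3.41%). Within 200 bp of the summit Motif 1 was in 4 of 20 windows, against 4.75% of promoter summits. Motif 1, the site of the factor M1BP, was found upstream of 7 of the 87 genes (8.05%, against 1.93% of all protein-coding genes), 3 of them bound and 4 not. Mean GC content in the windows was 33.7%, against 34.9% at all promoter summits. A match of letters is not evidence of a factor at the site, and no motif of az2 itself was searched.

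Other nuclear genes of mitochondrial energy supply were read in the same way, in 7 lists with 82 genes matched. Of these 25 were bound (30.5%, 20.8 to 41.6%), with the background inside the interval. The citric acid cycle and pyruvate dehydrogenase list had 7 of 18 bound, among them Idh3g, a subunit of isocitrate dehydrogenase (signal 1019), Fum1 (667, the peak shared with ND-ASHI) and Pdhb, of pyruvate dehydrogenase (388). Synthesis of coenzyme Q, the carrier that complexes I and II feed, had 4 of 9, with Coq4 at 1392, Coq3 at 547 and Coq7 at 535. The list made for assembly factors had 3 of 12, with CIA30, a complex I assembly factor, at 1126 and Cox17, a copper carrier for complex IV, at 460. The third was ttm50 at 228, which is named after the import protein Tim50 and was counted in this list only. Mitochondrial DNA upkeep and transcription had 4 of 12 (mtSSB 682, mTerf5 229, PolrMT 179), regulators of respiratory genes 2 of 7 (the estrogen-related receptor ERR 446 and crc 199), and protein import 3 of 14 (Hsc70-5 578, Tom7 471, Tim10 220). The list made for cytochrome c1, carriers and channels had 2 of 10. These were blw (449), the alpha subunit gene of complex V, and CG13551 (141). Cyt-c1, sesB, Ant2, Mpcp1, Mpcp2 and porin, of the same list, were not bound. Idh3g and CIA30 had peaks above those of all subunit genes except Cyt-c-d, and Coq4 above all of them. The nearest TSS to the Coq4 summit belongs to CG32176. Among the other genes named, another gene's TSS was also nearer at Fum1, ttm50, PolrMT, ERR, Tom7 and Tim10. For scale, genes of mitochondrial ribosomal proteins, which serve the subunits encoded in mitochondrial DNA, were bound in 37 of 73 cases (50.7%, 38.7 to 62.6%).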

How the data were processed

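ChIP-seq was done by the authors on 3 biological replicates; per the labels chromatin was sonicated to fragments of 200 to 800 bp. The deposited dm6 lists were used: 3 relaxed replicate lists (30000, 22372 and 30000 peaks), 1 relaxed pooled list (27145) and the IDR list (5786), called against a control alignment, per the text deposited with each sample. Which peak caller and IDR threshold were used is not given in the sources used here, and depth is unknown. The deposited signal ranked the peaks; the deposited −log10 q-value was not used for ranking; the deposited summit offset, an other kind of value, placed each peak. The dm3 lists were not used. Coordinates count from 1. TSSs came from Ensembl BDGP6.54 (release 115), sequence from RefSeq dm6. With 1 group there was no contrast, so shares were given with exact binomial (Clopper-Pearson) 95% intervals beside all protein-coding genes, and no test was run. Python 3.11.15, numpy 2.4.6, scipy 1.17.1 and matplotlib 3.10.9 were used, and the calls were tested on simulated data. A replicate covered a summit that lay in one of its 5786 highest peaks. Motif letters other than those printed were own choices from known consensus sites.

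The members and lists were chosen with earlier results of these data known. Named were all bound genes and their neighbours, both cytochrome c genes, the 3 genes just inside and outside 500 bp, the 5 highest relaxed peaks, gene-body peaks and the 3 highest genes of each pathway list; 11 pathway symbols did not match the annotation. Other unbound genes named for their role were chosen after their values were seen. Alternatives covered signal, window, TSS choice, replicate coverage, coverage with each replicate left out and motif window.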

Additional observations from a re-analysis of the deposited data

How the results depend on the processing

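With the 2893 IDR peaks of higher signal only, 13 of the 87 genes were bound (background 13.6%), 7 in complex I, 0 in complex II and 3 in complex IV, and 16 genes of the pathway lists. With a window of 250 bp the family had 17 of 87 (19.5%, background 17.6%) and the cytochrome c genes 0. With 1000 bp complex II had 2, complex III 2, cytochrome c 2 and the second copies 2 (background 25.9%). Counting only summits whose nearest TSS belongs to the gene, cytochrome c had 0, complex IV 3 and the pathway lists 19 of 82 (23.2%, background 16.4%). Each of these follows from the narrower or wider rule. Motif windows of 50 bp held any of the 8 motifs at 8 of 20 summits in place of 13 (background 27.0% and 49.5%), and Motif 7 was in 1 of 20 at 50 bp and 8 of 20 at 200 bp (4.12% and 17.7% of promoter summits). Of the values recomputed, 100 stayed within 1.5 times their main value or within the spread, 23 moved and 0 changed direction. Only the median offset has a direction, which stayed upstream, and the other values are counts that could not change theirs. Leaving replicate 1, 2 or 3 out of the coverage rule, with IDR peaks required to be covered in the other 2, gave 19, 20 and 19 bound genes. The shares were 21.8, 23.0 and 21.8%, against backgrounds of 19.0, 19.1 and 18.7%. The pooled list was not called again, so no count could rise. The count of 0 in complex III and in the second copies was therefore fixed in advance. The wider definition of second copies was chosen after seeing the data.

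No paired analysis was possible because there was 1 group. Summits near several starts cannot be assigned to 1 gene. Without read counts, a missing peak does not show that az2 was absent. Control immunoprecipitation, chromatin accessibility and gene activity were not analysed here, and their part in the results was not tested.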

Other observations

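Outside the promoters, 3 genes of the family had an IDR summit in the gene body more than 500 bp from each of their own starts. ND-39, an accessory subunit of the matrix arm of complex I, had a signal of 233 at 3L:20493411-20493840, in an intron 1544 bp from its TSS and 136 bp from the start of ZnT77C, a zinc transporter gene. Cyt-c-p had 408 at 967 bp, in an intron, and COX7AL2 had 202 at 511 bp, in its 5′ UTR. The next summits outside the window were 1050 bp upstream of ATPsynCF6 (signal 460) and 1112 and 1371 bp downstream of the starts of UQCR-Q (158) and ATPsynD (240).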
